A study of Mus musculus with 48 samples.

Results

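NRF2, encoded by Nfe2l2, is the transcription factor that drives the antioxidant programme, and 10 genes around it were followed in mPDAC cells, a mouse pancreatic ductal adenocarcinoma line. The genes were chosen by name, with earlier results of these data known. They are Nfe2l2 itself, its adaptor gene Keap1 and the antioxidant genes Nqo1, Hmox1, Gclc, Gclm, Txn1, Prdx1, Srxn1 and Osgin1. All 10 were found among the 50600 genes in the counts and all 10 were among the 13889 genes that passed the filter on low counts, so that each entered every test. The cells came from mice of FVB/N x C57BL6 background, given in the labels as 8 weeks old, and were either left non-treated (NT) or cultured for 48 h with 50 µM N6L, an antagonist of nucleolin. Each treatment had 3 cultures, numbered 1, 2 and 4 for NT and 1, 2 and 3 for N6L, and a single lysate of each culture yielded 1 library of cytoplasmic and 1 of polysomal RNA, hence 12 libraries and 4 groups. All are cultures of a single cell line, so p-values speak for these cultures only. The main fit estimated 1 spread per gene over all 12 libraries, shared by both fractions. It did not pair the fractions of a lysate.

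In resting cells KEAP1 binds NRF2 and delivers it to the CUL3 ubiquitin ligase, which has it degraded by the proteasome. Electrophiles and oxidants modify cysteines of KEAP1, NRF2 then accumulates without needing more of its mRNA, and as a dimer with a small MAF protein it binds antioxidant response elements in its target genes, several of which it shares with the repressor BACH1. Its targets supply glutathione, thioredoxin, quinone and heme detoxification and NADPH, and the programme is known for its activity in pancreatic ductal adenocarcinoma. The libraries measure mRNA alone, in the cytoplasm or bound to several ribosomes, and neither NRF2 protein nor glutathione.

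The antioxidant response element core was searched in the RefSeq promoters of these genes because it is the letter pattern that NRF2 binds. The promoter table (GRCm38.p6, 250 bases before to 50 after each start) held 8 of the 10 genes, the promoters of Hmox1 and Gclc not being analysed here. The core TGACNNNGC, read on both strands, occurred in 4 of these 8 windows, against 3369 of 27025 promoters of the same length (12.47%) and 13 of 60 promoters (21.67%) of the wider antioxidant list described further on. Among 10092 promoters of the genes tested 1497 held the core (14.83%). The 4 matches follow, each 25 bases long, 5′ to 3′ along the strand that carries the match, with the 9 letters of the core in capitals.
Nfe2l2, chr2:75704887-75704911, minus strand: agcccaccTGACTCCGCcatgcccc
Gclm, chr3:122245415-122245439, minus strand: gtgagagtTGACGGTGCgcccggga
Prdx1, chr4:116685458-116685482, minus strand: acgggggaTGACTCAGCgctttccc
Srxn1, chr2:152105544-152105568, minus strand: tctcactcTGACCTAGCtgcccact
The centre of the match lay 236 bases before the RefSeq start of Nfe2l2, 130 before that of Gclm and 129 before that of Prdx1, and 32 after that of Srxn1. The Prdx1 match contains the AP-1 element TGACTCA, which 3 of the 8 windows held (Prdx1, Srxn1 and Osgin1) and 5.17% of all promoters did. The Srxn1 stretch printed above does not hold this element. Among the promoters of the genes tested 3.8% held the AP-1 element. In the windows of Keap1, Nqo1, Txn1 and Osgin1 the core letters were absent, which says nothing of elements farther from the start. For Osgin1 the RefSeq start used here is another one than the start of the annotated gene. A match is a letter pattern and not a measured binding site.

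Depth ranged from 19519911 to 44972333 counts per library after the 4 technical replicates of each had been summed. These replicates differed by little more than sampling noise, with chi-square values of 1.02 to 1.04 per degree of freedom. For 3 sets of counts from the cytoplasm of N6L culture 2 the labels disagreed on the culture number. Against the undisputed set of culture 2 their chi-square values were 1.01 to 1.04 per degree of freedom. Against culture 1 they were 11.2 to 11.4, so the 3 sets were kept with culture 2. Leaving them out changed no call among the 10 genes. Of 8 ductal epithelial markers 7 reached at least 1 CPM (library-scaled counts, a relative abundance comparable between cultures) in every group, with Krt19 at 1108 to 2300 CPM and Epcam near 0 at 0.0349 to 0.301 CPM. None of 6 fibroblast and none of 4 endothelial markers reached 1 CPM, and 1 of 6 leukocyte markers did. Of 6 acinar genes, Cpa1, Ptf1a and Pnlip were at 0 in every library and Ctrb1 at up to 0.274 CPM, while Cela1 stood at 27.6 to 82.7 and Bhlha15 at 0.512 to 4.05 CPM, and the sum over the 6 was 30.1 to 86.8 CPM. A lower level in bulk RNA cannot tell fewer cells with the mRNA from less mRNA per cell.

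The levels spanned a wide range, and the 2 most abundant mRNAs were those of the thioredoxin and peroxiredoxin branch. In NT cytoplasm, and per kilobase of the longest annotated transcript, Txn1 stood at 670 ± 237 and Prdx1 at 563 ± 76.1 CPM per kb (SD, n = 3 here and below), which did not differ beyond their spread. The order between genes depends on this length, and the transcript expressed may be a shorter one. Without the scaling Prdx1 (1292 ± 175 CPM) stood above Txn1 (704 ± 249 CPM). Nfe2l2 at 136 ± 12.6 and Osgin1 at 115 ± 8.57 CPM per kb came next, each above the next gene by more than the SD. Gclc (68.1 ± 5.76 CPM per kb), Hmox1 (54.9 ± 19.4 CPM per kb), Gclm (36.0 ± 3.76 CPM per kb) and Srxn1 (34.8 ± 3.48 CPM per kb) followed, with neighbours that were not separated. Keap1 (24.8 ± 1.59 CPM per kb) and Nqo1 (22.3 ± 4.61 CPM per kb) were the lowest and not separated from each other. In N6L polysomes the order differed at the top, with Prdx1 at 648 ± 78.6, Txn1 at 490 ± 32.5 and Osgin1 at 344 ± 116 CPM per kb, and Nqo1 was again last at 17.4 ± 0.411 CPM per kb.

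**Figure D1:**
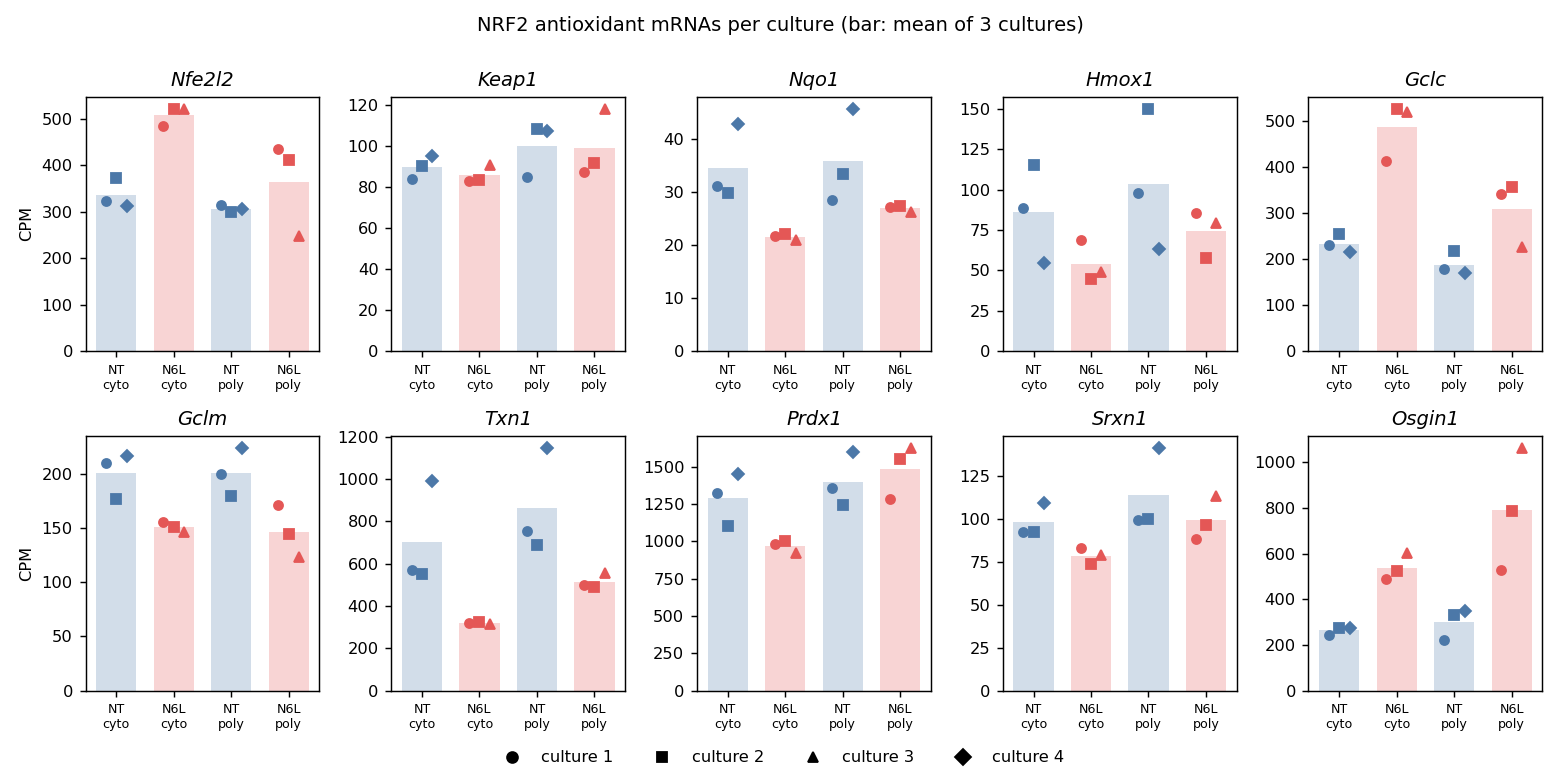
Level of the 10 mRNAs in each culture, in TMM-scaled CPM on a linear axis from 0, for NT and N6L cultures in cytoplasmic (cyto) and polysomal (poly) RNA; symbols are cultures and bars the mean of 3. In the cytoplasm the N6L cultures lie above all NT cultures for Nfe2l2, Gclc and Osgin1 and below all of them for Nqo1, Gclm, Txn1, Prdx1 and Srxn1.

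To ask what N6L did to the amount of these mRNAs, cytoplasmic N6L libraries were compared with cytoplasmic NT libraries. The 10 genes did not share a direction: 3 rose (Nfe2l2, Gclc and Osgin1), 2 fell (Nqo1 and Txn1) and 5 did not pass the limit, an adjusted p under 0.05 (edgeR quasi-likelihood test, adjusted over all 13889 genes by Benjamini-Hochberg). Over all genes 28.3% passed it, 14.5% higher and 13.8% lower. The median log2 change was -0.37 for the 10 genes and 0.04 for all genes. The groups did not overlap for 3 genes that lay higher and 5 that lay lower with N6L, against 29.3% of all genes higher and 25.6% lower (54.9% in either direction). Without N6L culture 2 the count was 3, namely Txn1, Gclc and Osgin1, where 9.24% of all genes passed. With library size alone in place of TMM scaling the same count of 3 rose and 2 fell, although the genes called overall then split into 2588 higher and 1363 lower, against 2013 and 1922.

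Nfe2l2 (ENSMUSG00000015839, chr2:75675513-75704641, minus strand, GRCm38) had 324, 372 and 313 CPM in NT cultures 1, 2 and 4 and 484, 521 and 522 CPM in N6L cultures 1, 2 and 3. All N6L cultures lay above all NT cultures. The mRNA rose by 0.60 on the log2 scale (SE 0.18, 1.51-fold, edgeR adjusted p = 0.0269), and the adjusted p was 0.0974 without NT culture 1, 0.119 without NT culture 4 and 0.126 without N6L culture 2. Keap1 (ENSMUSG00000003308, chr9:21229730-21239361, minus strand), the sensor that retains NRF2, had 83.6, 90.3 and 95 CPM in NT and 82.6, 83.5 and 90.5 CPM in N6L. The groups overlapped, with a log2 difference of -0.07 and a 95% interval from -0.40 to 0.26. Keap1 overlaps a gene on the opposite strand, Gm16754, and the strand setting of the counting is not given in the sources used here.

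The enzymes of glutathione synthesis parted ways. Gclc (ENSMUSG00000032350, chr9:77754535-77794485, plus strand) encodes the catalytic subunit of glutamate-cysteine ligase, the rate-limiting enzyme of glutathione synthesis. Its levels were 230, 254 and 215 CPM in NT and 413, 527 and 520 CPM in N6L, without overlap. It rose by 1.06 on the log2 scale (SE 0.18, 2.09-fold, edgeR adjusted p = 0.00228) and passed under all 17 alternative settings, with log2 changes of 0.94 to 1.20. Gclm (ENSMUSG00000028124, chr3:122245557-122270732, plus strand) encodes the modifier subunit of the same enzyme, which raises its affinity for glutamate and eases its feedback inhibition. Its levels were 210, 177 and 217 CPM in NT and 156, 151 and 146 CPM in N6L, so that all N6L cultures lay below all NT cultures. The log2 difference of -0.42 (95% interval -0.75 to -0.08) had an edgeR adjusted p of 0.0570 and passed under 5 of 17 alternatives, with DESeq2 at an adjusted p of 0.0214. Every N6L culture thus lay above NT for the catalytic and below NT for the modifier subunit. Gclm overlaps Gm6061 on its own strand and Gm17494 on the other, and Txn1 and Nfe2l2 likewise share sequence or position with Txn-ps1 and Gm24996, which leaves these counts uncertain to that extent.

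The ratio of the subunit mRNAs was computed after these values had been seen, and it is given as a description without a test. In NT cytoplasm it was 1.79, 2.34 and 1.62 (mean 1.92 ± 0.377), as Gclc CPM per kb over Gclm CPM per kb. In N6L cytoplasm it was 4.33, 5.70 and 5.81 (mean 5.28 ± 0.824). In polysomes it was 1.46, 1.97 and 1.24 in NT and 3.25, 4.04 and 3.02 in N6L, with means of 1.56 ± 0.372 and 3.44 ± 0.538. The N6L cultures lay above the NT cultures in both fractions, and the ratio was lower in polysomes than in cytoplasm of the same culture in all 6 cultures. The level of the ratio depends on the transcript lengths used, while its relative change between groups does not.

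**Figure D2:**
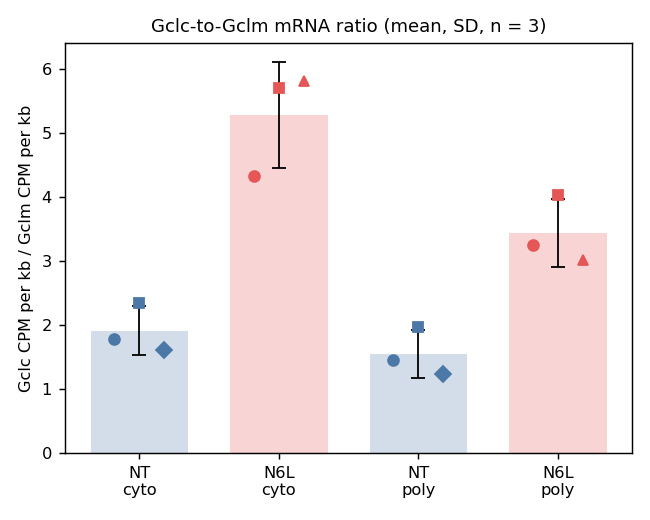
Ratio of Gclc to Gclm mRNA per kilobase in each culture, for NT and N6L cultures in cytoplasmic (cyto) and polysomal (poly) RNA; bars are means, error bars the SD over 3 cultures and symbols the cultures (circle 1, square 2, triangle 3, diamond 4). The mean ratio was 1.92 in NT cytoplasm and 5.28 in N6L cytoplasm, and 1.56 and 3.44 in polysomes.

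Of the thioredoxin branch, Txn1 fell and Prdx1 and Srxn1 did not pass the limit. Txn1 (ENSMUSG00000028367, chr4:57943373-57956411, minus strand), the cytosolic thioredoxin that reduces protein disulfides, had 572, 549 and 992 CPM in NT and 318, 325 and 316 CPM in N6L. The NT cultures were spread, with culture 4 the highest, and the N6L cultures lay close together below all of them. The mRNA fell by 1.14 on the log2 scale (SE 0.23, 0.454-fold, edgeR adjusted p = 0.00444) and passed under all 17 alternatives, with log2 changes of -1.29 to -0.59. The value nearest 0 came from the fit with the culture number as a block together with an offset for transcript length and GC content. Such a block leaves the treatment difference mainly to cultures 1 and 2, the numbers that both treatments have. Prdx1 (ENSMUSG00000028691, chr4:116685544-116700822, plus strand), a peroxiredoxin that reduces hydrogen peroxide with electrons from thioredoxin, had 1326, 1103 and 1448 CPM in NT and 979, 1001 and 924 CPM in N6L. These groups did not overlap, yet the log2 difference of -0.42 (95% interval -0.75 to -0.09) had an edgeR adjusted p of 0.0563. It passed under 4 of 17 alternatives, among them without NT culture 2, where the adjusted p was 0.0399. Srxn1 (ENSMUSG00000032802, chr2:152105516-152111376, plus strand), the sulfiredoxin that restores overoxidized peroxiredoxins, had 92.0, 92.4 and 109 CPM in NT and 82.6, 73.7 and 78.7 CPM in N6L, again without overlap. Its log2 difference was -0.32 (95% interval -0.68 to 0.04, edgeR adjusted p = 0.156).

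Nqo1 and Hmox1 are the targets most often read as a gauge of NRF2 activity, and of them Nqo1 passed the limit. Nqo1 (ENSMUSG00000003849, chr8:107388225-107403206, minus strand), the quinone reductase, had 31.2, 29.9 and 42.9 CPM in NT and 21.8, 22.1 and 21.0 CPM in N6L, all below NT. It fell by 0.68 on the log2 scale (SE 0.19, 0.624-fold, edgeR adjusted p = 0.0178), and the adjusted p was 0.0646 without N6L culture 2. With a block for the culture number together with the length and GC offset the log2 change of Nqo1 was -0.30 (edgeR adjusted p = 0.0707). That block leaves the treatment difference mainly to cultures 1 and 2, the numbers that both treatments have. Hmox1 (ENSMUSG00000005413, chr8:75093621-75100589, plus strand), the inducible heme oxygenase and a classical target of both NRF2 and BACH1, had 88.9, 115 and 54.4 CPM in NT and 68.7, 44.6 and 49.3 CPM in N6L. The groups overlapped because NT culture 4 was low. The log2 difference was -0.67 (95% interval -1.33 to -0.01, edgeR adjusted p = 0.114), and it was -0.94 with an adjusted p of 0.0252 without NT culture 4 and -0.41 without NT culture 2.

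Osgin1 (ENSMUSG00000074063, chr8:119434124-119446256, plus strand), an oxidative stress induced growth inhibitor, had 242, 276 and 276 CPM in NT and 489, 523 and 605 CPM in N6L, without overlap. It rose by 1.03 on the log2 scale (SE 0.23, 2.04-fold, edgeR adjusted p = 0.00697) and passed under all 17 alternatives, with log2 changes of 0.93 to 1.26.

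Next, the mRNA bound to polysomes was compared between treatments. Of the 10 genes 2 rose (Gclc and Osgin1), none fell and 8 did not pass the limit, where 9.67% of all genes passed it, 6.01% higher and 3.66% lower. The median log2 difference was -0.11 for the 10 genes and 0.00 for all genes. The groups did not overlap for 2 genes that lay higher and 3 that lay lower (Nqo1, Gclm and Txn1), against 25.6% of all genes in either direction. Gclc and Osgin1 also passed, alone of the 10, without N6L culture 3, where 7.77% of all genes did. The polysomal library of that culture gave the lowest N6L values of Nfe2l2 and Gclc. Only Osgin1 passed without NT culture 1 (1.44% of all genes), NT culture 4 (4.44%) or N6L culture 2 (1.04%). The same held with only the groups compared (2.46%). Without N6L culture 1 Gclm and Osgin1 passed (11.2%), and without NT culture 2 Txn1, Gclc and Osgin1 (6.77%). This comparison and the cytoplasmic one use different libraries of the same cultures.

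Osgin1 had 220, 329 and 348 CPM in NT polysomes and 529, 786 and 1063 CPM in N6L polysomes, the highest value in N6L culture 3. It rose by 1.41 on the log2 scale (SE 0.23, 2.65-fold, edgeR adjusted p = 0.00377) and passed under all 17 alternatives, with log2 changes of 1.14 to 1.63. Gclc had 178, 217 and 170 CPM in NT polysomes and 341, 358 and 227 CPM in N6L polysomes. All N6L cultures lay above NT, culture 3 by little. Gclc rose by 0.71 (SE 0.18, 1.64-fold, edgeR adjusted p = 0.0287) and kept its direction under all alternatives. Its adjusted p was 0.145 and 0.0891 when NT culture 1 or 4 was left out, 0.0581 and 0.186 when N6L culture 1 or 2 was, and 0.105 when only the groups compared were fitted.

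Nfe2l2 did not pass the limit in polysomes. Its levels were 315, 299 and 306 CPM in NT and 436, 411 and 249 CPM in N6L. N6L cultures 1 and 2 lay above and culture 3 below every NT culture, and the log2 difference was 0.25 (95% interval -0.14 to 0.64), and it was 0.10 with N6L culture 1 left out and 0.47 with culture 3 left out. Txn1 had 752, 686 and 1146 CPM in NT polysomes and 499, 491 and 554 CPM in N6L polysomes, all below NT. Its log2 difference of -0.74 (95% interval -1.23 to -0.25) had an edgeR adjusted p of 0.0552, and 6 of 17 alternatives brought it under the limit, among them DESeq2 (adjusted p = 0.0198) and the fit without NT culture 2 (adjusted p = 0.0459), while without NT culture 4 the difference was -0.47. Gclm had 200, 180 and 224 CPM in NT polysomes and 171, 145 and 123 CPM in N6L polysomes, without overlap, for a log2 difference of -0.46 (95% interval -0.79 to -0.13, edgeR adjusted p = 0.0760). Without N6L culture 1 the Gclm difference was -0.59 with an adjusted p of 0.0422.

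Nqo1 had 28.6, 33.4 and 45.8 CPM in NT polysomes and 27.3, 27.5 and 26.3 CPM in N6L polysomes. The N6L values lay just under the lowest NT value, with a log2 difference of -0.41 (95% interval -0.81 to -0.01, edgeR adjusted p = 0.178), which was -0.18 without NT culture 4. Prdx1, lower in the N6L cytoplasm, had 1358, 1240 and 1599 CPM in NT polysomes and 1283, 1553 and 1624 CPM in N6L polysomes. These groups overlapped, with a log2 difference of 0.09 (95% interval -0.24 to 0.42). Hmox1 had 98.1, 150 and 63.1 CPM in NT polysomes and 85.8, 57.8 and 79.6 CPM in N6L polysomes, a log2 difference of -0.48 (95% interval -1.14 to 0.18), which was -0.11 without NT culture 2. Srxn1 and Keap1 overlapped between treatments too, at log2 differences of -0.19 (95% interval -0.55 to 0.16) for Srxn1 and -0.02 (95% interval -0.35 to 0.31) for Keap1.

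**Figure D3:**
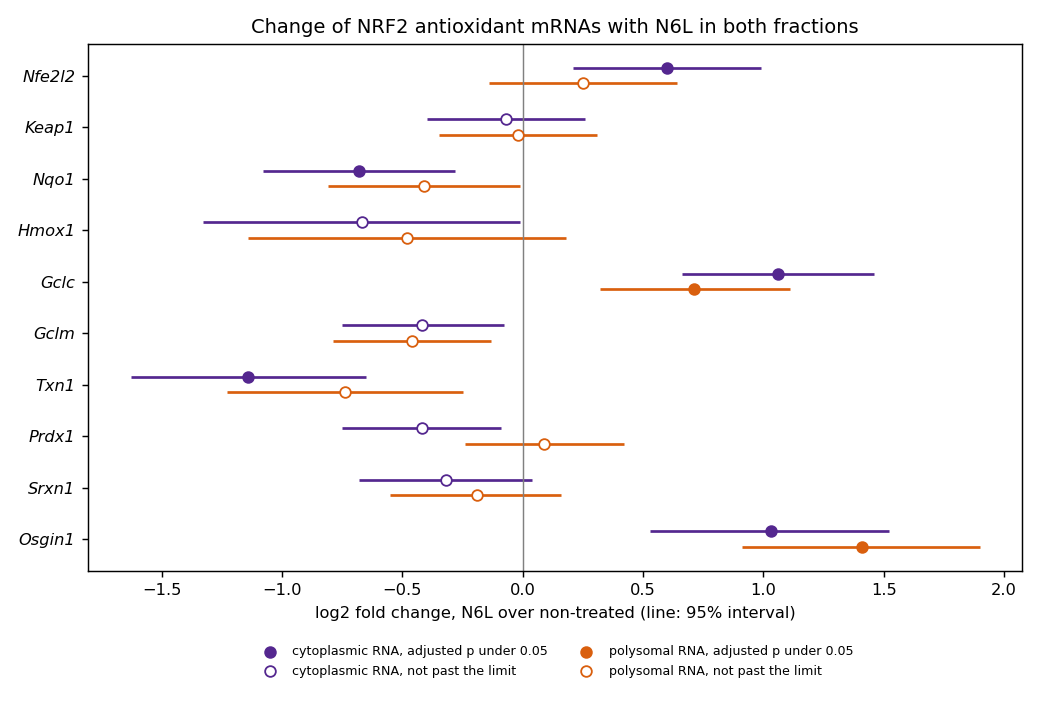
Log2 fold change with N6L over NT of the 10 mRNAs in cytoplasmic and polysomal RNA; lines are 95% intervals of the edgeR fit (3 cultures a group) and filled points have an adjusted p under 0.05. Gclc (1.06 and 0.71) and Osgin1 (1.03 and 1.41) are filled in both fractions, Nfe2l2, Nqo1 and Txn1 in the cytoplasm only; the difference between fractions is the translational index, for which no gene passed the limit.

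The relative loading of each mRNA on polysomes was then read as the polysome-to-cytoplasm ratio. Both libraries of a culture came from a single lysate. Each library was scaled by its own total and TMM factor. The ratio therefore sets an mRNA against the others and cannot show a change common to all mRNAs. The paper reports much smaller polysome peaks with N6L, a loss that these ratios do not measure. In NT cells none of the 10 genes passed the limit in edgeR, where 0.209% of all genes did, or in DESeq2, where 2.00% did, and no gene of the 10 was at an unadjusted p under 0.05 (13.4% of all genes) or free of overlap between fractions (22.4%). Their log2 ratios ran from -0.31 (Gclc) to 0.29 (Txn1) with a median of 0.14, against 0.03 over all genes. In N6L cells 2 rose (Txn1 and Prdx1) and 1 fell (Gclc), where 39.0% of all genes passed, 18.4% higher and 20.6% lower. The polysomal and cytoplasmic groups did not overlap for 6 of the 10 genes, 4 higher and 2 lower, against 56.9% of all genes. The median log2 ratio was 0.33 for the 10 genes and 0.03 for all genes.

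With a block for the lysate, so that both its libraries are paired, 8 of the 10 genes passed in N6L cells, where 53.7% of all genes passed in the same fit, and again none in NT cells, where 1.46% did. The blocked log2 ratios of the added genes were 0.32 for Nqo1 (edgeR adjusted p = 0.0361), 0.46 for Hmox1 (0.00890), 0.34 for Srxn1 (0.0376), 0.51 for Osgin1 (0.0181) and -0.52 for Nfe2l2 (0.0256). Without N6L culture 2, and likewise without N6L culture 3, none of the 10 passed in the unblocked fit, where 8.22% and 11.7% of all genes did. Under an offset for transcript length and GC content the N6L ratio of Nqo1 was 0.09, that of Hmox1 -0.08, that of Srxn1 0.02, that of Osgin1 -0.07 and that of Gclm 0.73. With the block and this offset together 5 of the 10 passed (Nfe2l2, Gclm, Txn1, Prdx1 and Gclc), against 35.4% of all genes.

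Prdx1 had log2 ratios of 0.04, 0.17 and 0.14 in NT cultures 1, 2 and 4 and of 0.39, 0.63 and 0.81 in N6L cultures 1, 2 and 3. In the fit the N6L ratio was 0.62 (SE 0.15, 1.54-fold, edgeR adjusted p = 0.00912), and the adjusted p was 0.0622 with N6L culture 2 left out and 0.0790 with culture 3 left out. Txn1 had log2 ratios of 0.39, 0.32 and 0.21 in NT and of 0.65, 0.60 and 0.81 in N6L. Its fitted N6L ratio was 0.69 (SE 0.23, 1.61-fold, edgeR adjusted p = 0.0298). Leaving out N6L culture 1, 2 or 3 gave adjusted p-values of 0.0770, 0.0950 and 0.162, and the length and GC offset a ratio of 0.35 (adjusted p = 0.159). For both genes every N6L culture lay above every NT culture.

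Gclc had log2 ratios of -0.37, -0.23 and -0.34 in NT and of -0.27, -0.56 and -1.19 in N6L, where culture 3 was far below the rest and culture 1 among the NT values. The fitted N6L ratio was -0.66 (SE 0.18, 0.635-fold, edgeR adjusted p = 0.0145), and it was -0.42 (adjusted p = 0.132) with N6L culture 3 left out and -0.70 (adjusted p = 0.0658) with culture 2 left out. Nfe2l2 had log2 ratios of -0.04, -0.32 and -0.03 in NT and of -0.15, -0.34 and -1.07 in N6L, where culture 3 was again the lowest. Its fitted N6L ratio of -0.48 (95% interval -0.87 to -0.09) had an edgeR adjusted p of 0.0503. The adjusted p lay under the limit in 9 of 17 alternatives, and without N6L culture 3 the ratio was -0.25 with an adjusted p of 0.294. Osgin1 had log2 ratios of -0.14, 0.25 and 0.34 in NT and 0.11, 0.59 and 0.81 in N6L, so that the groups overlapped. Of all 6 cultures N6L culture 3 held the lowest ratio for Gclc, Nfe2l2 and Gclm and the highest for Osgin1, Prdx1, Txn1, Hmox1, Srxn1 and Keap1.

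The difference of both ratios, the translational index (TI), asks whether N6L changed the loading of an mRNA on polysomes relative to other mRNAs. None of the 10 passed the limit. No gene of the 13889 passed it in edgeR or in DESeq2, with 1074 genes at an unadjusted p under 0.05 in edgeR (7.73%) and 1233 in DESeq2. The index was thus not shown to differ from 0 for any of these mRNAs, and a call in 1 treatment alone does not show a difference between treatments. The index of Prdx1 was 0.50 (95% interval 0.04 to 0.97, edgeR adjusted p = 0.555). In this unpaired fit Prdx1 was the only one of the 10 at an unadjusted p under 0.05. The index was 0.40 for Txn1 (95% interval -0.29 to 1.09), 0.38 for Osgin1 (-0.31 to 1.07) and 0.27 for Nqo1 (-0.30 to 0.84), and -0.35 for both Gclc (-0.90 to 0.21) and Nfe2l2 (-0.90 to 0.21). Hmox1 was at 0.19, Srxn1 at 0.13, Keap1 at 0.05 and Gclm at -0.04, and the median of the 10 was 0.16 against 0.01 for all genes. With the block for the lysate again no gene passed for the TI, and 2996 were at an unadjusted p under 0.05 in edgeR. The lowest adjusted p-values of the 10 in this paired fit were those of Prdx1 (0.50, SE 0.149, edgeR adjusted p = 0.196) and Txn1 (0.38, SE 0.135, edgeR adjusted p = 0.199).

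The per-culture ratios did not overlap between treatments for 3 of the 10 genes (Prdx1, Txn1 and Nqo1), all higher with N6L, against 15.3% of all genes higher and 14.4% lower. Nqo1 had log2 ratios of -0.13, 0.16 and 0.09 in NT and of 0.33, 0.31 and 0.33 in N6L. For each of these 3 genes the exact two-sided permutation test gave p = 0.1, the smallest that 3 cultures against 3 allow, and the p of the other 7 genes ran from 0.200 to 0.800. With library size alone in place of TMM scaling Nqo1 had an exact permutation p of 0.200.

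**Figure D4:**
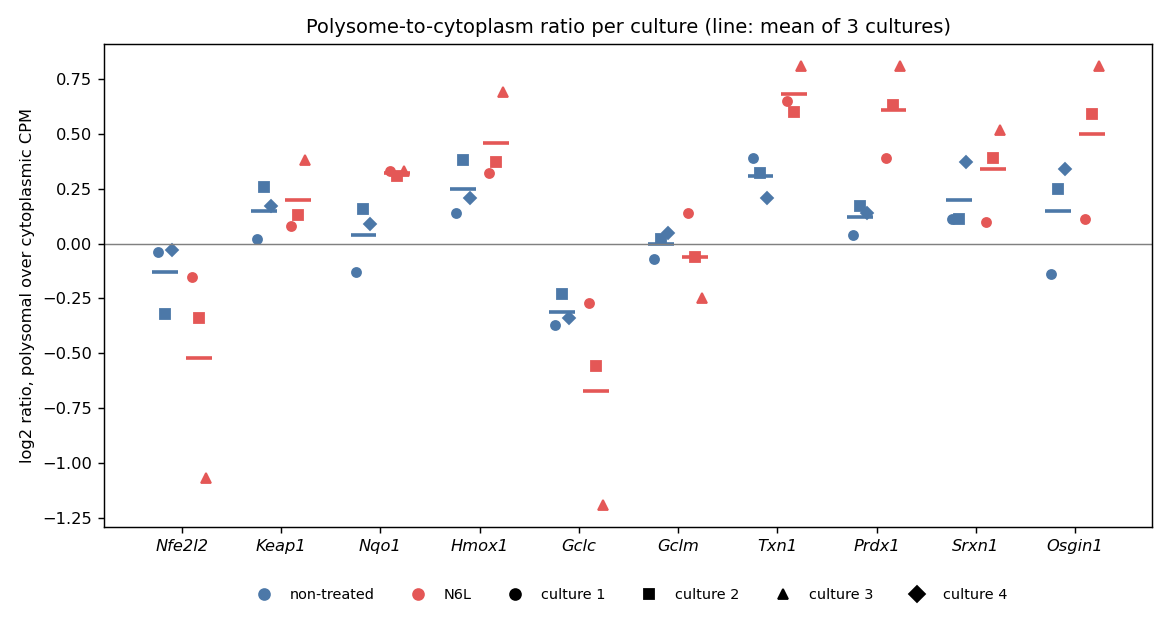
Log2 ratio of polysomal to cytoplasmic CPM of the 10 mRNAs in each culture, NT and N6L; symbols are cultures, short lines the mean of 3. The N6L values of Prdx1 (0.39 to 0.81), Txn1 (0.60 to 0.81) and Nqo1 (0.31 to 0.33) lie above all NT values, and N6L culture 3 stands apart for Gclc (-1.19) and Nfe2l2 (-1.07).

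Across the 12 libraries the genes formed opposed patterns, given here as Pearson r of log2 CPM without a test, since the libraries share cultures and groups. Gclc was most like Nfe2l2 (r = 0.91) and least like Txn1 (r = -0.91). Nqo1 and Txn1 were most like each other (r = 0.96), Srxn1 was most like Txn1 (0.89), Prdx1 most like Srxn1 (0.84), Keap1 most like Srxn1 (0.72) and Gclm most like Nqo1 (0.77). Osgin1 had no close partner among the 10, its highest r being 0.53 with Gclc and its lowest -0.89 with Gclm. Hmox1 reached at most 0.30, with Txn1. Txn1 was taken for the size of its cytoplasmic change, which led the 10 in the TMM-scaled fit of all cultures but not with library size alone, the block or the offset. The genes most like it among the 8958 genes averaging 10 CPM or more were Cfap298, Ppa1 and Plek2, each at r = 0.99.

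A wider list of 71 genes of the NRF2 pathway and of other antioxidant enzymes, of which 69 entered the tests (Gpx2 and Gpx3 did not), gives the surroundings of the 10. It too was chosen with earlier results of these data known. In the cytoplasm 5 of the 69 rose, 17 fell and 47 did not pass, where 14.5% of all genes rose and 13.8% fell, with a median log2 change of -0.19. In polysomes 6 rose, 5 fell and 58 did not pass, where 6.01% of all genes rose and 3.66% fell, with a median of -0.05. In NT cells no gene of the list passed for the polysome-to-cytoplasm ratio, where only 0.209% of all genes did. In N6L cells 22 rose and 8 fell, where 18.4% of all genes rose and 20.6% fell, with a median of 0.33. None passed for the TI, whose median was 0.20.

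By function, the thioredoxin system without Txn1, Prdx1 and Srxn1 had 1 gene that rose and 5 that fell of 9 in the cytoplasm. The counts by function are small and are read beside the 14.5% of all genes that rose and the 13.8% that fell there. Txnip, which binds and inhibits thioredoxin, rose by 1.85 on the log2 scale (SE 0.29, 3.60-fold, edgeR adjusted p = 0.00155), from 254 ± 80.5 CPM in NT to 915 ± 179 CPM in N6L. In polysomes Txnip rose by 1.65 (SE 0.29, edgeR adjusted p = 0.00479). Txn2, the mitochondrial thioredoxin, fell by 1.08 in the cytoplasm (SE 0.18, edgeR adjusted p = 0.00211). Txnrd1, the cytosolic thioredoxin reductase and a textbook NRF2 target, stood at 218 ± 21.5 CPM in NT and 234 ± 10.9 CPM in N6L, a log2 difference of 0.10 with a 95% interval from -0.30 to 0.50.

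Of 14 genes of glutathione conjugation and export none rose and 4 fell in the cytoplasm, where 14.5% of all genes rose and 13.8% fell. Gsta1 and Gsta2, alpha class glutathione transferases with near-identical sequences whose counts may share reads, fell by 1.80 (SE 0.29, edgeR adjusted p = 0.00179) and by 1.72 (SE 0.32, edgeR adjusted p = 0.00321). Both fell in polysomes too, by 1.40 for Gsta1 and by 1.76 for Gsta2, where Gsta2 stood at only 1.35 ± 0.445 CPM in N6L. Of 8 other genes of glutathione synthesis, import and use none passed in the cytoplasm. Slc7a11, the cystine importer that feeds the same pathway as Gclc, stood at 46.9 ± 6.12 CPM in NT and 49.6 ± 6.97 CPM in N6L, a log2 difference of 0.08 (95% interval -0.41 to 0.58) whose sign depended on the setting. In N6L cells Slc7a11 fell from cytoplasm to polysomes by 0.88 (SE 0.23, edgeR adjusted p = 0.0115), and with the length and GC offset this ratio was 0.23. Glrx, glutaredoxin, rose in polysomes by 0.77 (SE 0.20, edgeR adjusted p = 0.0309).

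Of 12 partners of NRF2 and genes of its turnover 1 rose and 2 fell in the cytoplasm. Bach1, the repressor that competes with NRF2 at antioxidant response elements, rose by 1.11 (SE 0.32, 2.16-fold, edgeR adjusted p = 0.0202), from 11.3 ± 2.99 to 24.5 ± 1.80 CPM. In polysomes it stood at 6.63 ± 2.55 CPM in NT and 9.82 ± 3.76 CPM in N6L, a log2 difference of 0.58 (95% interval -0.12 to 1.28). Its ratio of polysomes to cytoplasm in N6L cells was -1.31 (SE 0.32, edgeR adjusted p = 0.00817), the largest decrease of the wider list, and that of Cul3, which carries the ligase that degrades NRF2, was -1.17 (SE 0.25, edgeR adjusted p = 0.00556). Park7, the redox-sensing DJ-1 protein gene, fell in the cytoplasm by 1.13 (SE 0.27, edgeR adjusted p = 0.00937). Maff, a small MAF partner of NRF2, rose in polysomes by 0.94 (SE 0.21, edgeR adjusted p = 0.0152).

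Of 6 genes of heme breakdown and iron 1 rose and 2 fell in the cytoplasm. Fth1, the ferritin heavy chain that stores iron, fell by 1.14 (SE 0.17, 0.454-fold, edgeR adjusted p = 0.00114), from 5466 ± 1156 to 2480 ± 97.5 CPM. Slc40a1, the iron exporter ferroportin, rose by 0.90 (SE 0.22, edgeR adjusted p = 0.0107). In polysomes Fth1 fell by 0.81 and the biliverdin reductase gene Blvra by 0.50, while Slc40a1 rose by 0.87. These iron genes and Hmox1 act in a common route, in which heme oxygenase frees iron that ferritin stores or ferroportin exports.

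Of 6 NADPH-supplying genes Idh1, the cytosolic isocitrate dehydrogenase, rose by 0.58 in the cytoplasm (SE 0.16, edgeR adjusted p = 0.0159) and 1 fell. G6pdx, the entry enzyme of the pentose phosphate pathway, stood at 95.9 ± 21.4 CPM in NT and 100 ± 11.3 CPM in N6L, a log2 difference of 0.07 (95% interval -0.33 to 0.46). Of 10 genes of quinone and carbonyl detoxification none rose and 2 fell in the cytoplasm. In polysomes 1 of these, the epoxide hydrolase gene Ephx1, rose by 0.81 (SE 0.20, edgeR adjusted p = 0.0245), and the esterase D gene Esd fell by 0.59 (SE 0.14, edgeR adjusted p = 0.0202). Among 4 superoxide dismutase and catalase genes, Cat, which breaks down hydrogen peroxide, rose by 0.54 in the cytoplasm (SE 0.19) with an edgeR adjusted p that lay just under the limit, and 1 fell.

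In N6L cells the largest polysome-to-cytoplasm ratios of the wider list were those of Gpx4, Gpx1, Prdx5, Blvrb and Gstm4. Gpx4, which reduces lipid hydroperoxides, had a log2 ratio of 1.19 (SE 0.21), Gpx1 of 1.12 (SE 0.29), and Prdx5 (SE 0.24) and Blvrb (SE 0.20) of 1.01 each, with edgeR adjusted p-values of 0.00427, 0.0106, 0.00743 and 0.00463. Gstm4 followed at 0.99 (SE 0.23, edgeR adjusted p = 0.00677). The lowest ratios after Bach1 and Cul3 were those of the exporter gene Abcc4 (-0.89), the kinase gene Gsk3b (-0.88) and Slc7a11 (-0.88). The longest annotated transcripts had 995 (Gpx4) to 1826 (Prdx5) bases for the genes with the largest ratios. For those with the lowest they had 4709 (Cul3) to 9223 (Slc7a11) bases. With the length and GC offset 2677 genes passed for the N6L ratio instead of 5415, and Slc7a11 changed sign. An effect of transcript length on these ratios was not tested. For the TI none of these genes passed the limit, with the intervals of Slc7a11 (-0.92 to 0.48) and Bach1 (-1.50 to 0.44) spanning 0.

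**Figure D5:**
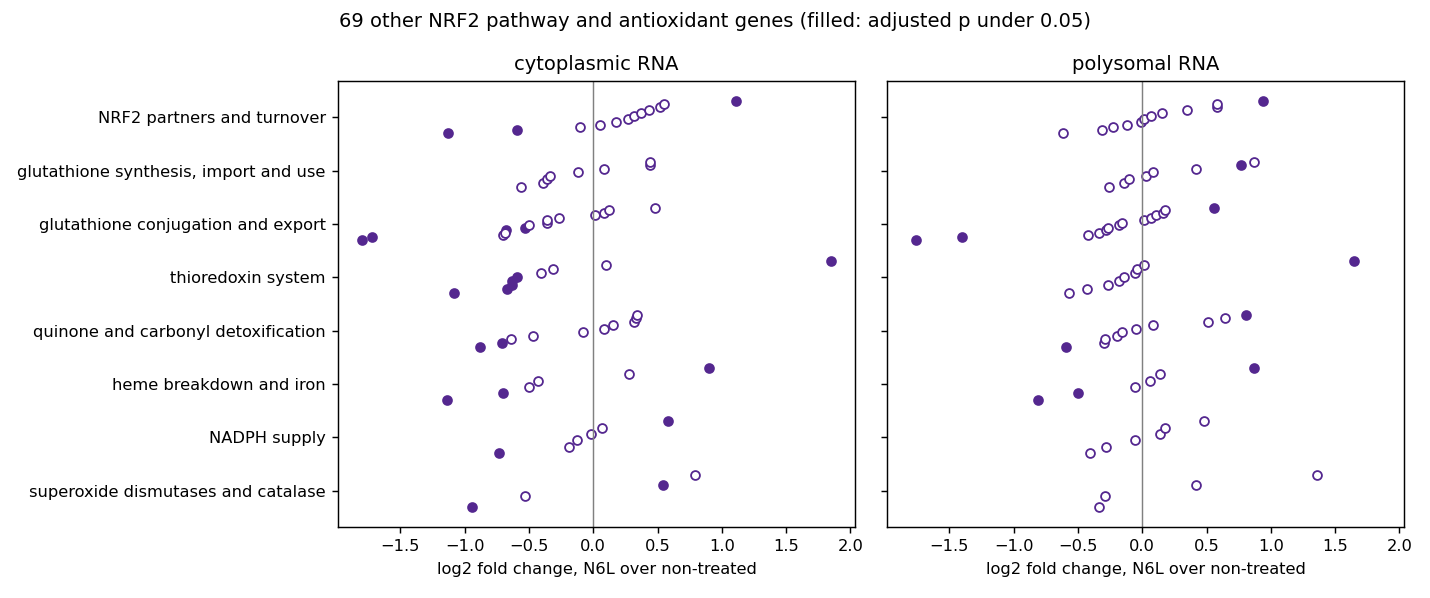
Log2 fold change with N6L over NT of the 69 tested genes of the wider list, 1 point a gene, by function, in cytoplasmic and polysomal RNA; filled points have an edgeR adjusted p under 0.05. In the cytoplasm 5 points are filled to the right of 0 and 17 to the left, and in polysomes 6 and 5; the farthest to the right is Txnip (1.85 and 1.65).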

How the data were processed

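Cytoplasmic and polysomal poly(A) RNA was sequenced on stranded libraries after emetine treatment, hypotonic lysis and removal of nuclei and mitochondria. Per the labels and methods the authors used bcl2fastq 2.18.0.12, STAR, HTSeq 0.5.3 and mm10, and deposited raw gene counts for 4 technical replicates per library. For annotation, strand setting and multi-mapping no source used here gives a value. Technical replicates were summed, filtered (filterByExpr, 13889 of 50600 genes), TMM-scaled and tested in R 4.3.3 by the quasi-likelihood functions of edgeR 4.0.16 (1 mean per group, Benjamini-Hochberg limit 0.05). DESeq2 1.42.0 was an alternative, and the fit was tested on simulated data. Levels are CPM, and log2 CPM used a prior count of 2. GENCODE vM21 (GRCm38) matched 50376 genes, and 0 entries named no gene. The 10 genes, the wider list and the markers were chosen with earlier results of these data known. All 10 were named in every comparison, and of the wider list the 5 largest increases and decreases past the limit plus Slc7a11, Txnrd1, Bach1 and G6pdx. Both libraries of a culture come from 1 lysate and are paired. After subtraction of group means they correlated at 0.36, 0.45 and 0.64 in NT and 0.04, 0.20 and 0.23 in N6L cultures.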

Additional observations from a re-analysis of the deposited data

How the results depend on the processing

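Each comparison was recomputed under up to 17 alternatives. Of 840 alternative values for the 10 genes, 738 kept their direction and side of the limit, 19 lost the limit, 39 gained it and 44 changed sign. Of 795 such values for the named genes of the wider list, 690 kept both, 76 lost the limit, 5 gained it and 24 changed sign. With 3 cultures a group small differences could be missed, most of all for the TI, and the causes of the changes below were not tested. In polysomes 1343 genes passed N6L against NT, and 2034 with DESeq2, 895 with technical replicate a alone, 328 with only the groups compared, 2693 with the length and GC offset, 2751 with that offset and the block, and 146 to 1579 without a culture. In the cytoplasm 3935 passed, and 1295 to 4042 without a culture. For the NT ratio 29 passed, and 647 without a filter, 273 with DESeq2, 18 with replicate a alone, 139 with only the groups compared, 78 with the length and GC offset, 634 with offset and block, and 0 to 335 without a culture. For the N6L ratio 5415 passed, 2677 with the offset and 1153 to 5861 without a culture. For the TI 0 passed, 114 without a filter and 0 to 1 without a culture. With the replicate block 4737 genes passed in the cytoplasm and 1355 in polysomes, and there Hmox1 (cytoplasm, -0.93) and Txn1 (polysomes, -0.48) gained the limit. Numbers are all that NT and N6L cultures share in these comparisons (correlations 0.23 and 0.05, 0.30 and 0.01). With or without the offset, this block leaves the treatment difference mainly to cultures 1 and 2. The remaining numbers each occur in a single treatment. With the block for the lysate 203 passed for the NT ratio, 7460 for the N6L ratio and 0 for the TI. Library size alone shifted the median of all genes from 0.04 to 0.19 in the cytoplasm and from 0.03 to -0.11 for the N6L ratio, and split the calls into 1082 higher and 312 lower in polysomes (835 and 508 with TMM) and 1762 and 3119 for the N6L ratio (2559 and 2856 with TMM). It turned Keap1 to 0.08 (cytoplasm), 0.06 (polysomes) and -0.02 (TI, and ratio per culture), and for the NT ratio Nqo1 to -0.03 and Gclm to -0.08. The offset, alone and with the block, turned Slc7a11 to -0.39 and -0.39 and Txnrd1 to -0.03 and -0.01 (cytoplasm), and for the NT ratio Nqo1 to -0.07 and -0.09, Osgin1 to -0.03 and -0.04 and Hmox1, with the block only, to -0.01. For the N6L ratio it turned Keap1 to -0.07 and -0.07, Hmox1 to -0.08 and -0.10, Gclm to 0.73 and 0.73, Osgin1 to -0.07 and -0.07 and Slc7a11 to 0.23 and 0.23. For the TI it turned Keap1 to -0.15 and -0.15, Hmox1 to -0.09 and -0.09, Gclm to 0.38 and 0.37, Srxn1 to -0.06 and -0.04, Osgin1 to -0.04 and -0.04, Slc7a11 to 0.39 and 0.39 and G6pdx to -0.08 and -0.13. Replicate a alone turned Slc7a11 to -0.01 (cytoplasm), Txnrd1 to 0.00 (NT ratio) and G6pdx to 0.02 (N6L ratio), RLE factors and DESeq2 turned G6pdx to 0.01 and 0.01 (N6L ratio), and fitting only the groups compared turned Gclm to -0.00 (NT ratio). Without a culture the sign changed within -0.05 to 0.19 for Slc7a11, -0.01 to 0.16 for Txnrd1 and -0.05 to 0.23 for G6pdx (cytoplasm), -0.16 to 0.06 for Keap1, -0.30 to 0.01 for Srxn1 and -0.28 to 0.09 for Slc7a11 (polysomes), -0.01 to 0.12 for Nqo1 and -0.05 to 0.04 for Gclm (NT ratio), -0.15 to 0.05 for Gclm and -0.07 to 0.08 for G6pdx (N6L ratio), and -0.05 to 0.13 for Keap1 and -0.15 to 0.04 for Gclm (TI).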
